A study of Sus scrofa with 12 samples.

Results

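The interferon-stimulated genes of the pig testis were described from 10 genes, MX1, MX2, ISG15, IFIT1, IFIT2, IFIT3, OAS1, OAS2, IFI6 and RSAD2. They were chosen by symbol, as genes that are widely used as readouts of the type I interferon response. All 10 were found among the 21674 coding genes of the series, and all 10 passed the filter on low counts in every comparison.

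Testis RNA of 12 boars was sequenced to compare an early maturing breed with Landrace at 2 ages. Hezuo (HZ) boars, a miniature plateau breed, were sampled at 30 days (Ha) and at 120 days (Hb), and Landrace (LC) boars at 30 days (La) and at 120 days (Lb). Each group had 3 biological replicates, and the boars of both breeds came from the same company and were reared under the same conditions. The estimated counts of a library summed to 22538398 to 23758935 in Ha, 17165491 to 22707579 in Hb, 18523269 to 23563929 in La and 18998900 to 23253531 in Lb. The testes were obtained by castration, ribosomal RNA was removed, and strand-specific libraries were sequenced. As a check of the age labels, the summed FPKM (fragments per kilobase of transcript and mapped fragments, as deposited) of 10 spermatid markers was 5.72, 7.02 and 6.73 in Ha and 10.8, 9.39 and 4.53 in La, but 5280, 5793 and 7667 in Hb and 3909, 3342 and 3575 in Lb. These sums do not check the breed labels.

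Type I interferons bind a receptor of IFNAR1 and IFNAR2, which activates JAK1 and TYK2. Transcription factors, STAT2 and IRF9 among them, then act in the nucleus and switch on genes that carry an interferon-stimulated response element. Many of the proteins made block the entry, translation or copying of viruses, and in the testis Sertoli cells, Leydig cells and macrophages are known to respond to interferon.

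The levels of the genes were compared on the FPKM scale, which accounts for transcript length. IFI6, which codes for a small membrane protein of mitochondria and the endoplasmic reticulum, had the highest FPKM of the 10 genes in 12 of 12 libraries. Its mean FPKM was 279 ± 106 in Ha, 227 ± 75.5 in Hb, 795 ± 205 in La and 190 ± 42.8 in Lb (mean ± SD, n = 3). MX1 followed with 22.7 ± 14.3, 4.18 ± 1.38, 45.8 ± 17.8 and 6.32 ± 3.38 FPKM in the same order of groups, and ISG15 with 17.6 ± 13.7, 3.92 ± 1.55, 33.9 ± 19.0 and 7.18 ± 4.18. The ranges of MX1 and ISG15 overlapped in each group, and MX1 ranked above ISG15 in 9 of 12 libraries, although the mean of ISG15 was the higher in Lb. The middle of the order was held by OAS2, IFIT3 and IFIT1. Their ranges overlapped with that of a neighbour in every group, from 11.9 ± 3.88 FPKM for OAS2 and 7.34 ± 1.75 for IFIT1 in La to 1.67 ± 0.408 and 1.003 ± 0.621 in Hb. IFIT2, OAS1, RSAD2 and MX2 were the lowest, and MX2 was last in 8 of 12 libraries, at 1.03 ± 0.475, 0.257 ± 0.139, 1.81 ± 0.597 and 0.293 ± 0.0874 FPKM. Ranges of neighbours at this end overlapped, except those of IFIT2 and OAS1 in La and of OAS1 and MX2 in Lb. MX2 had 9 to 141 estimated counts per library, while IFI6 had 3393 to 21701.

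**Figure D1:**
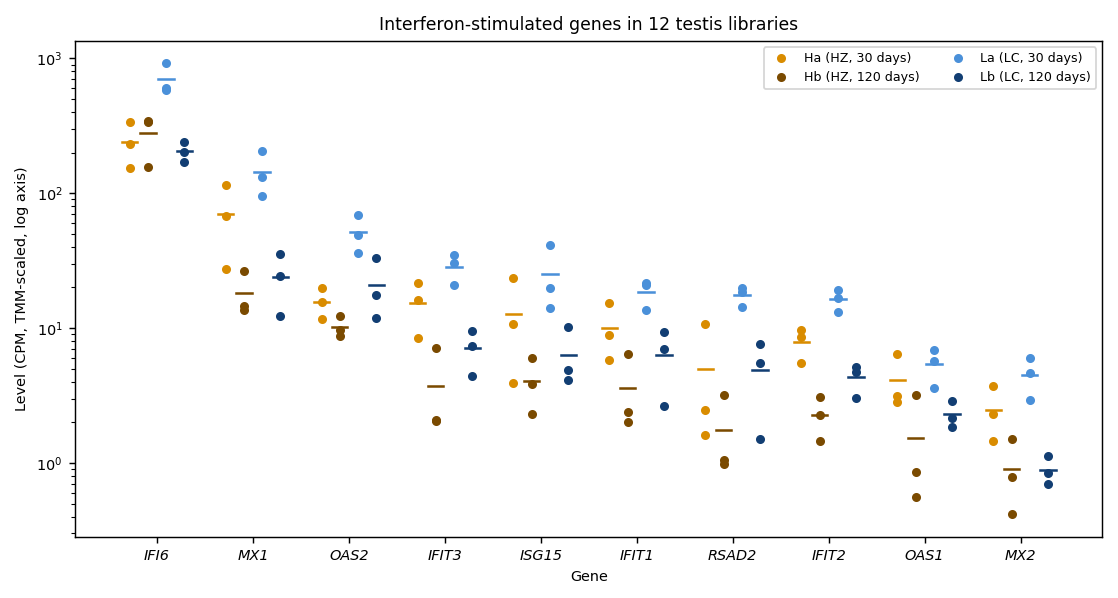
Level of each of the 10 genes in the 12 libraries, in CPM on a log axis; each point is 1 library, short bars are group means, and colours mark breed and age. Values at 120 days lie below all those at 30 days for 10 genes in LC boars and for 3 genes (MX1, IFIT2 and IFIT3) in HZ boars.

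In LC boars 10 of the 10 genes were called downregulated from 30 to 120 days (La vs Lb), where 20.1% of all 16637 genes tested were called lower. In HZ boars (Ha vs Hb) 4 of 10 were called downregulated, MX1, IFIT1, IFIT2 and IFIT3, where 23.2% of 16548 genes were called lower. The groups did not overlap for 10 of 10 genes in LC boars (37.3% of all genes lay apart in that direction) and for 3 of 10 in HZ boars (37.6%). The median log2 fold change (later over earlier age) of the 10 genes was −1.87 in La vs Lb and −1.49 in Ha vs Hb, beside 0.01 and −0.02 over all genes tested. Without Ha1 the number called in HZ boars was 2, and without Ha2 or Hb1 it was 6. It was 7 with library totals, with upper-quartile factors and in 1 fit of all 12 libraries, and 8 with limma on log2(FPKM + 0.1). Of all genes 5039, 5101, 4100 and 5839 were called lower under these settings in this order, against 3844. Without Ha1, Ha2 and Hb1 they were 3626, 3640 and 3715. A gene was called where edgeR's quasi-likelihood test with Benjamini-Hochberg adjustment over all genes tested gave a p below 0.05 and the log2 fold change was larger than 1 in size. Fold changes are given with ± 1 standard error, and levels per library as CPM, counts scaled to a common library size. In bulk RNA, fewer cells of a type and less RNA per cell cannot be told apart.

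MX1 and MX2 code for dynamin-like GTPases that trap viral components. In HZ boars MX1 was at 115, 27.3 and 67.6 CPM in the 3 Ha libraries and at 26.6, 14.6 and 13.7 in the 3 Hb libraries, a log2 fold change of −1.94 ± 0.519 (adjusted p = 0.0122). The lowest Ha library, Ha2, was just above the highest Hb library, Hb1, so the groups did not overlap. In LC boars MX1 was at 207, 95.0 and 131 CPM in La and 24.3, 12.3 and 35.4 in Lb, a log2 fold change of −2.57 ± 0.412 (adjusted p = 0.000614). Every La library lay more than 2-fold above every Lb library. MX2 was at 3.72, 1.45 and 2.29 CPM in Ha and 1.51, 0.418 and 0.791 in Hb, with a log2 fold change of −1.46 ± 0.581 (adjusted p = 0.0558) that did not pass. Hb1 was above Ha2, so these groups overlapped, and MX2 passed under 7 of 15 alternatives, among them without Ha2 (−1.74, adjusted p = 0.0488) and without Hb1 (−2.05, adjusted p = 0.0229), within a range of 0.00849 to 0.193 over all alternatives. In LC boars MX2 fell from 5.98, 4.62 and 2.94 CPM in La to 0.694, 0.847 and 1.13 in Lb, with a log2 fold change of −2.32 ± 0.378 (adjusted p = 0.000671) and no overlap.

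ISG15 codes for a ubiquitin-like protein that is joined to other proteins after interferon. It was at 23.3, 3.896 and 10.8 CPM in Ha and 6.03, 2.32 and 3.82 in Hb, and the log2 fold change of −1.64 ± 0.650 (adjusted p = 0.0547) did not pass. Ha1 was far above the rest and Ha2 lay between the Hb libraries, and ISG15 passed under 8 of 15 alternatives, among them without Ha2 (−2.08, adjusted p = 0.0117, range over all alternatives 0.0103 to 0.229). In LC boars ISG15 was at 41.2, 14.2 and 19.7 CPM in La and 4.86, 4.10 and 10.1 in Lb, and fell with a log2 fold change of −1.96 ± 0.474 (adjusted p = 0.00581). La1 was the highest of the 12 libraries, and the lowest La library was above the highest Lb library.

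IFIT1, IFIT2 and IFIT3 code for proteins with tetratricopeptide repeats that bind foreign RNA. All 3 were called in both breeds. IFIT1 was at 15.2, 5.78 and 8.89 CPM in Ha and 6.44, 1.997 and 2.37 in Hb, a log2 fold change of −1.47 ± 0.548 (adjusted p = 0.0451). Hb1 was above Ha2, so the groups overlapped although the test passed. This call was lost without Ha1 (−1.03, adjusted p = 0.157), Ha3 (−1.55, 0.0753), Hb2 (−1.21, 0.105) or Hb3 (−1.24, 0.126), and over all alternatives the adjusted p ranged from 0.00479 to 0.157. In La and Lb IFIT1 was at 20.7, 13.6 and 21.6 and 6.99, 2.64 and 9.29 CPM, a log2 fold change of −1.54 ± 0.419 (adjusted p = 0.0102) with no overlap. IFIT2 was at 9.67, 5.503 and 8.62 CPM in Ha and 3.07, 2.28 and 1.45 in Hb, a log2 fold change of −1.80 ± 0.372 (adjusted p = 0.00374). All Ha libraries exceeded all Hb libraries, and the call held under each of 15 alternatives. In LC boars IFIT2 was at 19.2, 13.1 and 16.8 CPM in La and 4.72, 3.01 and 5.18 in Lb, a log2 fold change of −1.91 ± 0.265 (adjusted p = 0.000272) with no overlap.

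IFIT3 was at 21.6, 8.39 and 16.3 CPM in Ha and 7.07, 2.09 and 2.04 in Hb, the largest fall with age among the 10 genes in HZ boars (log2 fold change −2.04 ± 0.579, adjusted p = 0.0154). MX1 fell more than IFIT3 without Hb2, without Hb3 and with limma on log2(FPKM + 1). The Ha and Hb values of IFIT3 did not overlap, but its call was lost without Ha1 (−1.73, adjusted p = 0.0511, range over all alternatives 0.000919 to 0.0511). In LC boars it was at 34.6, 20.8 and 30.2 CPM in La and 7.31, 4.42 and 9.50 in Lb, with a log2 fold change of −1.99 ± 0.310 (adjusted p = 0.000519). Every La library was more than 2-fold above every Lb library.

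OAS1 and OAS2 code for synthetases of 2′-5′-linked oligoadenylate, which activates the RNA-cutting enzyme RNase L. OAS1 was at 6.45, 2.85 and 3.15 CPM in Ha and 3.19, 0.557 and 0.857 in Hb, with a log2 fold change of −1.43 ± 0.691 that did not pass. Hb1 lay among the Ha libraries, while Hb2 and Hb3 were below them, and OAS1 passed under 7 of 15 alternatives, among them without Hb1 (−2.56, adjusted p = 0.00691, range over all alternatives 0.00691 to 0.298). In LC boars OAS1 fell from 6.83, 3.62 and 5.68 CPM in La to 1.85, 2.17 and 2.87 in Lb, with a log2 fold change of −1.21 ± 0.328 (adjusted p = 0.0101); this call was lost in 1 fit of all 12 libraries (adjusted p = 0.0703, range over all alternatives 0.00261 to 0.0703) and with limma on log2(FPKM + 1) (−0.92). OAS2 was at 19.7, 11.7 and 15.5 CPM in Ha and 9.68, 12.2 and 8.77 in Hb, and its log2 fold change of −0.61 ± 0.245 (adjusted p = 0.0562) did not pass. Hb2 exceeded Ha2, and the remaining Hb libraries lay below all Ha libraries. In LC boars OAS2 was at 69.0, 36.0 and 48.9 CPM in La and 17.7, 11.9 and 32.9 in Lb, a log2 fold change of −1.28 ± 0.380 (adjusted p = 0.0156). Lb3 came close to La2 without overlap, and the call was lost without La1 (−1.01, adjusted p = 0.0569) or Lb1 (−1.16, 0.0552), within a range of 0.000711 to 0.0569 over all alternatives.

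RSAD2 codes for viperin, a radical S-adenosylmethionine enzyme that makes a chain terminator of viral RNA. It was at 10.8, 1.61 and 2.48 CPM in Ha and 3.19, 0.975 and 1.06 in Hb, and its log2 fold change of −1.51 ± 0.821 (adjusted p = 0.138) did not pass. Ha1 was the highest and Hb1 was above both other Ha libraries, and without Ha1 the log2 fold change was −0.24 (adjusted p = 0.766, range over all alternatives 0.0295 to 0.766). In LC boars RSAD2 was at 19.8, 14.4 and 18.4 CPM in La and 5.51, 1.51 and 7.65 in Lb, a log2 fold change of −1.82 ± 0.485 (adjusted p = 0.00917) with no overlap.

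IFI6 was at 338, 155 and 231 CPM in Ha and 344, 158 and 340 in Hb, with a log2 fold change of 0.22 ± 0.371 (adjusted p = 0.617). The groups overlapped throughout, and the value was −0.028 without Ha2. It was −0.11 with library totals and −0.11 with upper-quartile factors, where the median of all genes moved to −0.33 and −0.34. Relative to that median IFI6 was at 0.24, and at 0.21 and 0.23 with those scalings. In LC boars IFI6 was at 921, 588 and 603 CPM in La and 172, 203 and 240 in Lb, a log2 fold change of −1.76 ± 0.208 (adjusted p = 0.000104), which was the smallest adjusted p of the 10 genes in that comparison. The lowest La library was more than 2-fold above the highest Lb library. IFI6 was the only one of the 10 genes whose change with age was called different between the breeds, with an interaction (LC change minus HZ change, log2) of −2.00 ± 0.466 (adjusted p = 0.0289), where 5.14% of 17332 genes were called. That call was lost without Ha2 (adjusted p = 0.0634), Ha3 (0.0529), Hb3 (0.0644), La1 (0.0656), La3 (0.0544), Lb1 (0.0625) or Lb2 (0.0635), while the interaction stayed between −2.28 and −1.75 and the adjusted p ranged from 0.000562 to 0.0656 over all alternatives. For the other 9 genes the smallest adjusted p of the interaction was 0.430, for OAS2, so the larger number of calls in LC boars does not show a larger change. Markers with a called interaction were 5 of 10 stromal (ACTA2, COL1A1, COL1A2, COL3A1 and PDGFRB), AIF1 of 5 macrophage, PECAM1 of 5 endothelial and DAZL and KIT of 11 spermatogonium markers, all above 0, and PRM1 and ACRV1 of 10 spermatid markers, below 0. Their part in the IFI6 result was not tested.

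**Figure D2:**
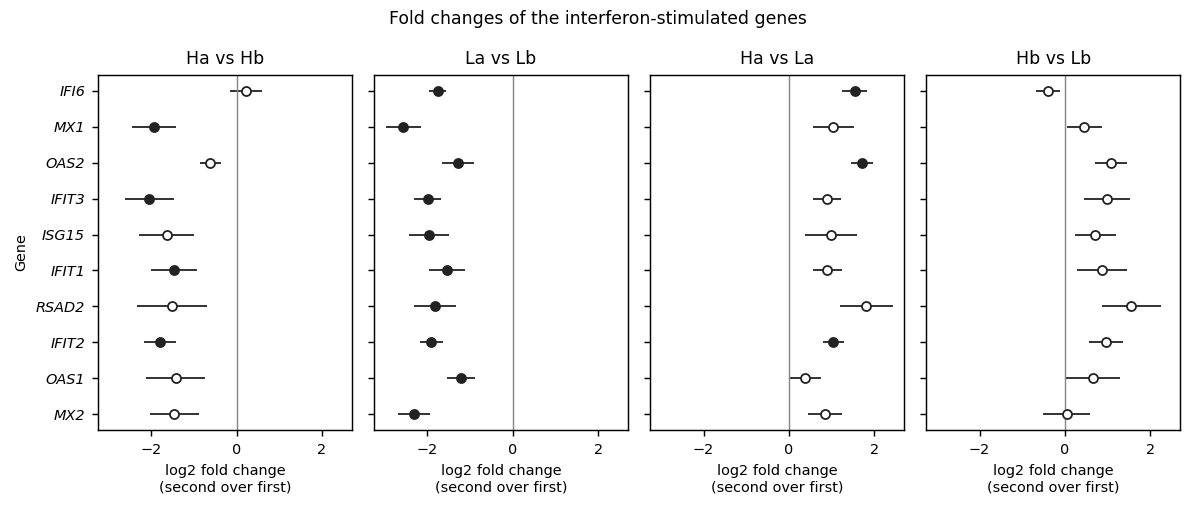
Log2 fold changes of the 10 genes in the 4 comparisons, second group over first, with bars of 1 standard error on either side; filled points passed the call and open points did not. In La vs Lb all 10 points are filled and lie between −2.57 and −1.21, and in Hb vs Lb all 10 are open.

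At 30 days OAS2, IFI6 and IFIT2 were higher in LC boars than in HZ boars. The log2 fold change of LC over HZ (Ha vs La) was above 0 for 10 of 10 genes, with a median of 1.01 beside 0.00 over all genes tested. Those 3 of 10 genes were called upregulated in LC boars, where 3.60% of 15648 genes were called higher, and 4 did not overlap between the breeds (20.2% of all genes lay apart in that direction). OAS2 had 69.0, 36.0 and 48.9 CPM in La against 19.7, 11.7 and 15.5 in Ha, a log2 fold change of 1.71 ± 0.266 (adjusted p = 0.00516), and the lowest La library was close to 2-fold above the highest Ha library. IFI6 differed by 1.54 ± 0.289 (adjusted p = 0.00981), and IFIT2 by 1.04 ± 0.240 (adjusted p = 0.0200), both with no overlap. Without Ha1 the number called was 5 and the median of the 10 genes 1.48, and without Ha2 these were 2 and 0.64. Of all genes 442 and 429 were then called higher, against 564. The IFIT2 call was lost without Ha2 (log2 fold change 0.84, adjusted p = 0.0437), La1 (0.93, adjusted p = 0.0635) or La3 (adjusted p = 0.0650), in 1 fit of all 12 libraries (adjusted p = 0.0527) and with limma on log2(FPKM + 1) (0.85), and over all alternatives the adjusted p was 0.000463 to 0.0650.

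RSAD2 had the largest difference between the breeds at 30 days, 1.81 ± 0.617 (adjusted p = 0.0727), and its groups did not overlap, but it did not pass. OAS2 differed more than RSAD2 without Ha2, without Ha3 and with limma on log2(FPKM + 1). For RSAD2, Ha1 stood at 10.8 CPM and the other Ha libraries at 1.61 and 2.48. Without Ha1 the log2 fold change of RSAD2 was 3.10 with an adjusted p of 0.00209 (range over all alternatives 0.00209 to 0.160). RSAD2 passed under 4 of 15 alternatives, among them limma on log2(FPKM + 1) (1.447, adjusted p = 0.0262) and on log2(FPKM + 0.1) (2.136, adjusted p = 0.0342). The remaining genes did not pass either, with log2 fold changes of 1.04 (adjusted p = 0.158) for MX1, 0.98 (adjusted p = 0.282) for ISG15 and 0.85 (adjusted p = 0.162) for MX2. IFIT1 was at 0.90 (adjusted p = 0.0997), IFIT3 at 0.89 (adjusted p = 0.0922) and OAS1 at 0.37 (adjusted p = 0.510). In these 6 genes Ha1 lay within the range of La. Without Ha1 IFIT1 passed (1.34, adjusted p = 0.0275, range over all alternatives 0.0275 to 0.307). With a block on replicate number MX1 (adjusted p = 0.0175) and ISG15 (adjusted p = 0.0273) passed. The labels do not link boars of the same replicate number, so this block does not follow from the design. Leaving out 1 library, MX1 ranged from 0.66 (without Ha2) to 1.61 (without Ha1). ISG15 ranged from 0.44 (without La1) to 1.77 (without Ha1).

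At 120 days no call was made between the breeds. In Hb vs Lb 0 of 10 genes passed edgeR's quasi-likelihood test with Benjamini-Hochberg adjustment, where 2.65% of 16311 genes were called higher in LC boars. At an unadjusted p under 0.05 there were 2, IFIT2 and OAS2, and DESeq2 called 1, OAS2. All 10 genes overlapped between the breeds (16.0% of all genes lay apart and higher in LC). The log2 fold change was above 0 for 9 of 10 genes, with a median of 0.79 beside 0.00 over all genes. It was 1.07 ± 0.381 (adjusted p = 0.131) for OAS2, with an interval of 2 standard errors of 0.31 to 1.84, and 1.55 ± 0.687 (adjusted p = 0.203) for RSAD2 (0.18 to 2.93). The point estimates were 0.98 for IFIT3, 0.97 for IFIT2, 0.87 for IFIT1, 0.71 for ISG15, 0.65 for OAS1 and 0.45 for MX1. Leaving out 1 library, they were 0.70 to 1.80, 0.74 to 1.22, 0.46 to 1.56, 0.19 to 1.09, 0.25 to 1.73 and 0.04 to 0.79 in this order. OAS2 was then at 0.561 to 1.365 and RSAD2 at 1.056 to 2.295. The median of the 10 genes was 0.452 without Lb3 and 1.16 without Hb1. MX2, at 0.04 ± 0.554, changed sign with the fit of all 12 libraries and without Hb2, Hb3 or Lb3. IFI6 was the only gene below 0, at −0.40 ± 0.283 (adjusted p = 0.408). The 4 comparisons share groups, since each of Ha, Hb, La and Lb enters an age comparison and a breed comparison, so the values of a gene in them are not independent.

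Within groups, the 10 genes were high or low together in the same boars. Ha1 was the highest Ha library for 10 of 10 genes and Ha2 the lowest for 10 of 10, while 33.4% of 17332 genes were highest in Ha1 and 29.7% lowest in Ha2. Hb1 was the highest Hb library for 9 of 10 (40.7% of all genes), La1 the highest La library for 9 of 10 (37.3%) and Lb3 the highest Lb library for 10 of 10 (29.5%). The mean deviation of the 10 genes from their group mean was 0.77 log2 CPM in Ha1, −0.75 in Ha2, 0.75 in Hb1, −0.49 in Hb2, 0.41 in La1, −0.37 in La2, −0.56 in Lb2 and 0.56 in Lb3. Each gene's deviations over the 12 libraries had a Pearson r with the mean of the other 9 genes between 0.636 (OAS2) and 0.949 (MX1). These deviations sum to 0 in each group, so the 12 libraries are not 12 free points. OAS2 left the common order in Hb, where Hb2 was the highest, and IFI6 had its lowest Hb value in Hb2 with Hb1 and Hb3 alike.

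**Figure D3:**
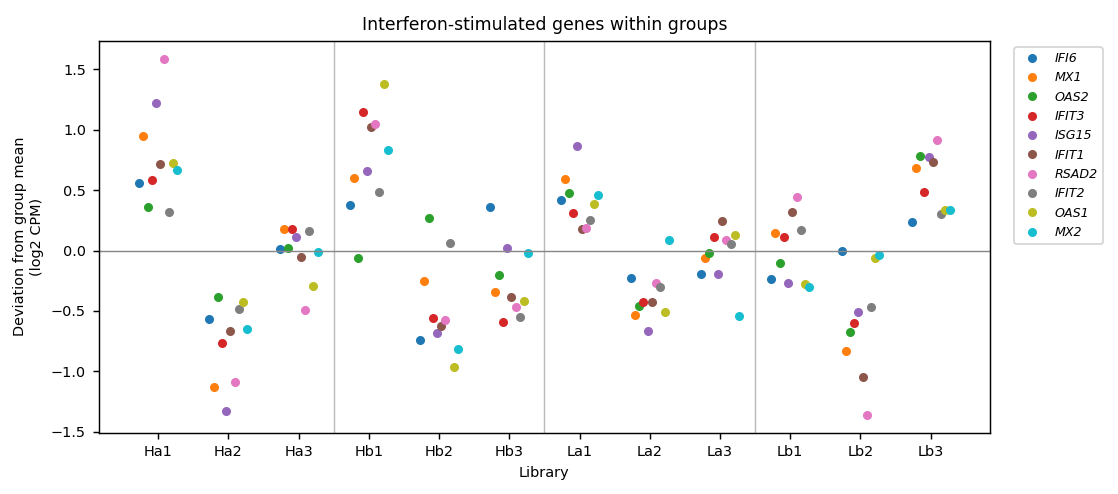
Deviation of each of the 10 genes from its group mean in log2 CPM (vertical axis) in each of the 12 libraries; each colour is 1 gene and vertical lines part the 4 groups. In Ha1, La1 and Lb3 all 10 points lie above 0, and in Ha2 all 10 lie below 0.

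The genes outside the 10 whose deviations were most like their mean were sought among 17322 genes over the 12 libraries. They were PYGM (Pearson r = 0.976), LGALS3BP (0.954), LGALS9 (0.932), FAM219A (0.929), WDR12 (0.928), XAF1 (0.915), LOC100525227 (0.900), MARCH1 (0.892), IFITM1 (0.892) and LOC733579 (0.889), the last described as TRIM5. Spearman's rho for these genes was 0.825 to 0.972. Without Ha1 and Hb1, the libraries farthest from the median, r was 0.784 (LOC733579) to 0.958 (PYGM). LGALS3BP, XAF1 and IFITM1 belong to the list of other interferon-stimulated genes. The median r of the 39 genes of that list was 0.405 and 17 of 39 exceeded 0.5, beside a median of 0.0196 over all 17322 genes, of which 6.72% exceeded 0.5. For 20 genes induced chiefly by interferon gamma the median r was 0.174, and 2 exceeded 0.5.

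Other genes of the interferon pathway were taken from 6 lists of 150 symbols, of which 123 were in the table. With age 61 of 99 tested were called lower and 4 higher in HZ boars, and 68 of 103 lower and 3 higher in LC boars. Of all genes tested 23.2% were called lower and 28.2% higher in HZ boars, and 20.1% lower and 27.5% higher in LC boars. Their median log2 fold changes were −1.46 and −1.40. Between breeds 12 of 104 were called higher and 2 lower in LC boars at 30 days, where 3.60% of all genes were called higher and 4.01% lower. At 120 days 4 of 96 were called higher, where 2.65% of all genes were called higher and 1.20% lower. The median was 0.46 at both ages.

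Of the interferons themselves, 20 genes were in the table and 12 were listed at 0 counts in every library, among them IFNB1. IFNG reached at most 6 estimated counts in a library. IFNE, an interferon of reproductive epithelia, was the most abundant by counts. It had 49, 44 and 39 counts in Ha, 9, 22 and 44 in Hb, 9, 8 and 5 in La and 2, 3 and 5 in Lb. By FPKM, IFNG had the higher mean in La, 0.203 beside 0.0933 for IFNE, and in La3 both had 5 counts. The Ha libraries of IFNE lay above its La libraries, with a log2 fold change of −2.39 ± 0.381 (adjusted p = 0.00558) in Ha vs La. The 10 interferon-stimulated genes had fold changes of the opposite sign in that comparison.

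Of 12 receptors and signal transducers 9 were called lower with age in HZ boars and 8 in LC boars, and 0 were called higher. The most abundant of them, the kinase JAK1, had log2 fold changes of 0.04 (adjusted p = 0.885) and 0.39 (adjusted p = 0.00571) in HZ and LC boars, at 390, 363 and 408 CPM in La and 515, 499 and 493 in Lb, and was picked after its values were seen. Among the receptor chains called lower in both breeds were IFNGR2, with log2 fold changes of −3.13 (adjusted p = 7e-05) and −2.57 (adjusted p = 0.000251) in HZ and LC boars, and IFNAR2, with −1.98 (adjusted p = 0.000173) and −1.57 (adjusted p = 0.000186). For IFNGR1 they were −1.24 (adjusted p = 0.000709) and −1.75 (adjusted p = 4.72e-06), and for IFNAR1 −1.52 (adjusted p = 0.000200) and −1.41 (adjusted p = 1.24e-05). STAT2 and IRF9, transcription factors of the response, were named for their role after their values were seen. IRF9 was at 25.4, 13.1 and 18.1 CPM in Ha, 3.54, 2.55 and 1.52 in Hb, 38.6, 35.1 and 35.2 in La and 5.37, 1.79 and 7.80 in Lb. Its log2 fold changes with age were −2.89 (adjusted p = 0.000437) and −2.85 (adjusted p = 0.000452), with no overlap between the ages in either breed. STAT2 had log2 fold changes of −1.46 (adjusted p = 0.000496) and −1.37 (adjusted p = 1.73e-05). At 30 days IRF9 (0.94, adjusted p = 0.0202) was higher in every La than in every Ha library but stayed under a log2 fold change of 1.

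Among nucleic acid sensors and their adaptors 10 of 21 were called lower and 2 higher in HZ boars, and 12 of 21 lower and 2 higher in LC boars. UNC93B1, which escorts nucleic acid-sensing Toll-like receptors to endosomes, fell in both breeds (−2.21, adjusted p = 0.000461, and −2.06, adjusted p = 3.16e-05). The transcription factor IRF5 (−2.85, adjusted p = 0.000287, and −1.54, adjusted p = 0.000562) and the receptor TLR8 (−2.23, adjusted p = 0.00303, and −2.42, adjusted p = 0.000226) fell in both breeds too. The 2 that rose were IRF7, a transcription factor of interferon genes that is itself induced by interferon (3.02, adjusted p = 0.000153, in HZ and 2.37, adjusted p = 4.49e-05 in LC boars), and DHX58, a helicase of the RIG-I family (3.09, adjusted p = 0.00238, and 1.69, adjusted p = 0.000108). IRF5 was higher in LC boars at 30 days (1.10, adjusted p = 0.00467) and at 120 days (2.45, adjusted p = 0.0231).

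Of the other interferon-stimulated genes, 21 of 36 were called lower and 1 higher in HZ boars, and 25 of 39 lower and 1 higher in LC boars. TRIM25, a ubiquitin ligase, fell in both breeds (−2.09, adjusted p = 1.68e-05, and −2.89, adjusted p = 2.15e-06), as did CNP (−1.19, adjusted p = 0.000112, and −1.05, adjusted p = 4.37e-05) and LGALS3BP (−2.39, adjusted p = 0.000149, and −2.57, adjusted p = 3.56e-06). The gene that rose in both was TDRD7, a tudor-domain protein that germ cells use in spermatid development (3.58, adjusted p = 9.51e-06, and 2.99, adjusted p = 1.14e-07). Its mean FPKM went from 13.7 in Ha to 115 in Hb and from 14.7 in La to 94.0 in Lb.

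In Ha vs La 5 genes of this list were called higher in LC boars. XAF1 was at 9.17, 2.77 and 4.504 CPM in Ha and 25.0, 12.2 and 16.3 in La (1.69 ± 0.439, adjusted p = 0.0303). IFITM3, a membrane protein that hinders virus entry, was at 10.3, 7.19 and 8.89 and 30.5, 15.7 and 20.8 CPM (1.34 ± 0.255, adjusted p = 0.0103). IFI44L and HERC6 differed by 1.24 (adjusted p = 0.0289) and 1.22 (adjusted p = 0.0198). In all 4 genes every La library was above every Ha library. IFI30, a thiol reductase of lysosomes, was listed at 0 counts in all 3 Ha and all 3 Hb libraries and in Lb3, and was at 31.6, 19.0 and 31.4 CPM in La and 15.6 and 22.0 in Lb1 and Lb2. Against the floor of 3 counts per library it was at least 233-fold higher in La than in Ha (adjusted p = 0.000344). Its counts were 338 to 790 in the libraries where it was not 0. How the zeros arose, and how reads were assigned to this gene, was not tested.

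Genes listed as induced by interferon gamma were called lower with age in 15 of 18 tested in HZ boars and 17 of 20 in LC boars. In HZ and LC boars the log2 fold changes were −2.80 (adjusted p = 2.56e-05) and −1.64 (adjusted p = 0.00442) for GBP1 and −2.26 (adjusted p = 8.46e-05) and −1.31 (adjusted p = 0.00263) for PSMB8. They were −4.06 (adjusted p = 0.00589) and −2.70 (adjusted p = 6.25e-07) for TAPBP and −1.85 (adjusted p = 0.000319) and −1.70 (adjusted p = 1.17e-05) for TAP1. TAPBP was listed at 0 counts in Hb3 and was at 5.91 and 6.18 CPM in Hb1 and Hb2, beside 63.7, 70.7 and 70.7 in Ha. PSMB8, TAP1, TAPBP and B2M serve antigen presentation on class I molecules, and GBP1 is a guanylate-binding protein. TAP1 was at 48.8, 46.1 and 56.8 CPM in Ha and 118, 93.5 and 100 in La (1.03 ± 0.117, adjusted p = 0.00188), and at 18.5, 12.6 and 10.9 in Hb and 36.0, 29.7 and 29.0 in Lb (1.22 ± 0.227, adjusted p = 0.0280). The breeds did not overlap at either age. B2M and GBP1 were also higher in LC boars at 30 days (1.03, adjusted p = 0.00451, and 1.04, adjusted p = 0.00253) and at 120 days (2.09, adjusted p = 0.0144, and 2.24, adjusted p = 0.0298). The chemokines CXCL10 and CXCL11 were higher in La than in Ha (1.68, adjusted p = 0.00235, and 2.14, adjusted p = 0.0187), with CXCL10 at 80.0, 60.4 and 80.2 CPM in La and 18.0, 20.3 and 30.4 in Ha. CXCL11 was low, at no more than 34 counts in a library. The class I genes SLA-1 and SLA-3 differed in opposite directions at 30 days (−2.00, adjusted p = 0.000942, and 2.39, adjusted p = 0.000332). They are polymorphic copies of similar sequence, and how reads were assigned between them was not tested.

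Among these calls 4 were made between the breeds at 120 days (TAP1, B2M, GBP1 and IRF5), and the number of pathway genes called was 0 without Hb3, 1 without Lb1, Lb2 or Lb3, and 8 without Hb2. Of all genes 119 were called without Hb3, 182, 97 and 139 without Lb1, Lb2 and Lb3, and 1029 without Hb2, against 628. At 30 days the 14 calls were 7 without Ha2, 7 without La1 and 21 without Ha1. All genes called were then 887, 936 and 890, against 1192.

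Of the negative regulators 6 of 11 were called lower in each breed. PTPN6, a phosphatase of blood cells (−2.87, adjusted p = 9.24e-05, and −1.60, adjusted p = 0.000103 in HZ and LC boars), and SOCS3, which blocks JAK kinases (−2.58, adjusted p = 0.000114, and −2.08, adjusted p = 0.000169), fell in both breeds. So did IRF2 (−1.32, adjusted p = 0.000503, and −1.40, adjusted p = 2.99e-05) and TRIM38 (−1.77, adjusted p = 0.00111, and −1.91, adjusted p = 9.5e-05). PIAS1 rose in HZ boars (1.01, adjusted p = 0.00213), and its value in LC boars was 0.43 (adjusted p = 0.0904). PTPN6 was the 1 gene of the 6 lists with a called interaction of breed and age (1.25 ± 0.333, adjusted p = 0.0450), which was of the opposite sign to that of IFI6.

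Markers of immune, somatic and germ cells moved with age in the same libraries. All 5 macrophage markers were called lower in HZ boars and 4 of 5 in LC boars, with medians of −3.01 and −1.80. Their summed FPKM was 40.3, 32.7 and 32.6 in Ha, 3.49, 4.56 and 2.24 in Hb, 38.3, 33.0 and 36.3 in La and 5.91, 9.64 and 9.91 in Lb, and CSF1R was the most abundant at 10.5, 1.25, 12.7 and 3.32 FPKM. The medians of the 10 genes were −1.49 and −1.87, and the part of these cells in them was not tested. T and NK cell markers were called lower in 8 of 8 tested in each breed, with summed FPKM of 18.1, 15.5 and 16.9 in Ha, 1.72, 3.20 and 1.10 in Hb, 28.9, 25.6 and 25.8 in La and 1.96, 5.34 and 5.64 in Lb, NKG7 being the most abundant. Of 4 markers of plasmacytoid dendritic cells 3 were called lower in each breed. Their summed FPKM was 16.8, 17.3 and 17.4 in Ha, 6.40, 6.62 and 5.40 in Hb, 23.1, 26.0 and 27.2 in La and 8.82, 9.87 and 9.46 in Lb. TCF4 and IRF8 held most of this sum, with means of 10.8 and 5.74 FPKM in Ha, where TLR9 had 0.41. How much of it came from plasmacytoid dendritic cells was not tested. No marker of any list was at 0 in all libraries, and CLEC4C was not in the table.

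Among somatic cells, endothelial markers were called lower in 5 of 5 in HZ boars and 3 of 5 in LC boars, peritubular and stromal markers in 8 of 10 and 5 of 10 (with ACTA2 called higher in LC boars), Sertoli markers in 4 of 8 and 4 of 8, and Leydig markers in 4 of 7 and 5 of 7. Their most abundant genes were VWF, COL3A1, INHA and INSL3. The summed FPKM of stromal markers was 976, 950 and 978 in Ha, 102, 101 and 66.5 in Hb, 1341, 1224 and 1512 in La and 530, 516 and 562 in Lb. Endothelial markers summed to 93.7, 94.5 and 84.3 FPKM in Ha, 13.9, 26.7 and 15.7 in Hb, 97.95, 78.3 and 91.0 in La and 28.2, 45.7 and 28.6 in Lb. Spermatocyte markers, led by PIWIL1, were called higher in 8 of 8 and spermatid markers, led by PRM1, in 9 of 9 tested in each breed. Of 11 spermatogonium markers 3 were called higher and 6 lower in HZ boars, and 4 higher and 5 lower in LC boars. The part of these shifts in the changes of the 10 genes was not tested.

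Some markers also differed between the breeds. At 30 days the macrophage list had a median log2 fold change of 0.10 in LC over HZ boars, against 1.01 for the 10 genes, and its sums overlapped between Ha and La. Of 8 T and NK cell markers 2 were called higher in La (CD3E 1.21, adjusted p = 0.00938, and CD2 1.42, adjusted p = 0.0157), as was SPIB among 4 markers of plasmacytoid dendritic cells, the main makers of type I interferon in blood (1.51, adjusted p = 0.0286). TCF4 was the most abundant of those 4, at 10.8 FPKM in Ha and 17.1 in La. Of 8 Sertoli markers 3 were called higher in La (AMH, FSHR and INHA), and the list summed to 782, 751 and 973 FPKM in Ha and 1508, 1770 and 1632 in La, and at 120 days to 181, 288 and 216 in Hb and 311, 385 and 370 in Lb. Of 8 spermatocyte markers 4 were called lower in La (SYCP1, SYCP2, HORMAD1 and PIWIL1), with a median of −0.89 and sums of 10.5, 11.0 and 6.5 FPKM in Ha and 5.40, 4.76 and 4.41 in La, and 1 of 7 Leydig markers was called higher in La (HSD17B3, 1.16, adjusted p = 0.00232). Of the spermatogonium markers DAZL and of the neutrophil and erythroid markers ALAS2 were called lower in La. For B cells the most abundant marker alone is given, JCHAIN, at 0.553 ± 0.840 FPKM in Ha, 2.85 ± 1.18 in La and 0.290 ± 0.251 in Lb (mean ± SD), and listed at 0 in Hb. The part of these cell types in the breed difference was not tested.

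At 120 days the stromal list was called higher in LC boars in 5 of 10 genes (ACTA2, COL1A1, COL1A2, COL3A1 and PDGFRB), AIF1 of the macrophage list (2.17, adjusted p = 0.0447) and PECAM1 of the endothelial list (1.41, adjusted p = 0.0484) were called higher, AKAP4 of the spermatid list was called lower (−1.10, adjusted p = 0.0283), and the macrophage sums of Lb lay above those of Hb. Of 7 Leydig markers 0 were called, but 7 had a log2 fold change above 0 and 3 an unadjusted p below 0.05. Their median of 1.95 was above that of the stromal list (1.66), and the part of Leydig cells in the values of the 10 genes was not tested. Blood-borne cells were also present: neutrophil and erythroid markers, led by HBB, summed to 166, 223 and 93.1 FPKM in Ha, 4.25, 19.2 and 26.6 in Hb, 122, 59.2 and 45.8 in La and 14.0, 20.04 and 43.4 in Lb. Hb1 stood apart from Hb2 and Hb3 in Leydig markers, whose sums were 2180, 189 and 128 FPKM in Hb1, Hb2 and Hb3, beside 5487, 5009 and 4883 in Ha, 7771, 5341 and 6281 in La and 2708, 4057 and 1712 in Lb. Hb1 was also the highest Hb library for 9 of the 10 genes. Without Hb1, 6 of 10 genes instead of 4 were called lower in Ha vs Hb, and without Ha1, the highest Ha library, 2 (MX1 and IFIT2). The median r with the 10 genes within groups was 0.408 for Leydig markers, 0.360 for plasmacytoid dendritic cells, 0.233 for macrophages, 0.191 for stromal cells, 0.157 for spermatocytes, −0.00226 for spermatids and −0.0214 for T and NK cells. It was −0.225 for endothelial cells, −0.248 for spermatogonia, which were led by DDX4, −0.337 for neutrophils and erythroid cells and −0.355 for Sertoli cells. An r above 0.5 was reached by 1 of 5 macrophage, 1 of 8 T and NK cell, 1 of 10 stromal and 1 of 10 spermatid markers. In the other lists named here, with 7 Leydig and 4 plasmacytoid dendritic cell markers, the number was 0, beside 6.72% of all genes.

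The positions of the genes are given on Sscrofa11.1 from RefSeq. MX2 (ncbi_396893, chromosome 13, 204798633 to 204821612) and MX1 (ncbi_397128, chromosome 13, 204843049 to 204868927) are neighbours, and a lncRNA between them, LOC102159603, had at most 3 counts in a library. OAS2 (ncbi_595128, chromosome 14, 38827667 to 38847697) and OAS1 (ncbi_397570, chromosome 14, 38851083 to 38867427) are also adjacent, 3386 bases apart, and OAS1 overlaps the end of RPH3A. IFIT2 (ncbi_100155467, chromosome 14, 101193421 to 101204292), IFIT3 (ncbi_100154248, 101214730 to 101225169) and IFIT1 (ncbi_100153038, 101237403 to 101249486) lie within the span of LIPA, a lysosomal lipase gene that also fell with age (−2.94 ± 0.402, adjusted p = 0.000503, in HZ and −1.83 ± 0.208, adjusted p = 8.47e-05 in LC boars). LIPA had 558 ± 61.7 CPM in Ha and 478 ± 64.8 in La (mean ± SD). ISG15 (ncbi_100145895, chromosome 6, 63363201 to 63364211) overlaps LOC110261384, IFI6 (ncbi_110261124) lies at 84852782 to 84858072 of the same chromosome, and RSAD2 (ncbi_396752) at 128880853 to 128897809 of chromosome 3. Estimated counts were not whole, beyond a tolerance of 0.005, in 11 of 12 libraries for MX2, 12 for OAS2 and 7 for IFI6.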

How the data were processed

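Testis RNA of 12 boars (3 in each of 4 groups) was analysed. Reads were filtered (fastp 0.18.0), freed of ribosomal sequence (Bowtie2 2.2.8), aligned to the pig genome (HISAT2 2.1.0) and assembled (StringTie 1.3.4) by the authors. The authors deposited an estimated count per gene, not normalized, whose tool is not given in the sources used here. The deposited FPKM values were scaled by the authors for transcript length and mapped fragments.

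Estimated counts were rounded to whole numbers and the whole coding table was fitted for each comparison of 6 libraries, using edgeR 4.0.16 under R 4.3.3: filterByExpr with a minimum count of 10, TMM, the quasi-likelihood test and Benjamini-Hochberg adjustment. Thresholds were those of the study. A standard error is the size of the log2 fold change divided by the square root of F. The interaction was fitted over 12 libraries. CPM used TMM over 12 libraries; deviations used log2 CPM with a prior count of 2. With 3 against 3 libraries an exact permutation test cannot go below 0.1, so none was run. Alternatives were DESeq2 1.42.0, library totals, upper-quartile factors, limma 3.58.1 on log2 FPKM with 1 or 0.1 added (filter at 0.1 FPKM), no filter, a stricter filter, 1 fit of all libraries, leaving out each library, and a replicate block. That block used the replicate numbers of the titles, which do not link boars across groups.

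The genes named are the 10 genes; in each list of other interferon genes, those called between the breeds and, for each age comparison, the 2 that rose and the 2 that fell with the lowest adjusted p; the 10 genes most similar within groups; and the most abundant gene of each marker list. For the B cell list no other result is given. STAT2, IRF9, other genes shown in both breeds, marker genes called between breeds and neighbours within 10 kb were named after their values were seen. The members and lists were chosen with earlier results of these data known.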

Additional observations from a re-analysis of the deposited data

Results flagged for a closer look

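The change of IFI6 with age differed between the breeds, which was tested as the interaction of breed and age in edgeR's quasi-likelihood test. IFI6 was at a mean of 241 CPM in Ha and 280 in Hb, and at 704 in La and 205 in Lb. The log2 change in LC boars minus that in HZ boars was −2.00 ± 0.466 (adjusted p = 0.0289). The 3 La libraries stood above all 9 others, which overlapped among themselves. The call was lost without Ha2, Ha3, Hb3, La1, La3, Lb1 or Lb2, with an adjusted p of 0.000562 to 0.0656 over all alternatives.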

How the results depend on the processing

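Among the log2 fold changes of single genes over the alternatives, 558 kept their direction and their side of the thresholds, 32 passed newly, 21 no longer passed and 9 changed sign. In La vs Lb 9 or 10 of the 10 genes were called under every alternative. In Ha vs Hb 7 were called with library totals, 7 with upper-quartile factors, 8 with limma on log2(FPKM + 0.1), 7 in the fit of all 12 libraries, and 2 (without Ha1) to 6 (without Ha2 or Hb1) leaving out 1 library. Of all genes 5839 were called lower with that limma fit and 4100 in the fit of all 12 libraries, against 3844. In Ha vs La 2 to 5 were called leaving out 1 library, the 5 without Ha1. In Hb vs Lb DESeq2 called 1, and the interaction of breed and age had 0 or 1 call leaving out 1 library. Other pathway genes called in Ha vs La were 7 with limma on log2(FPKM + 1) and 7 to 21 leaving out 1 library; in Hb vs Lb they were 13 with DESeq2, 7 with limma on log2(FPKM + 0.1), 15 in the fit of all 12 libraries and 0 to 8 leaving out 1 library. Of all genes, 1153, 811 and 1258 were called in Hb vs Lb under the same fits, and 97 to 1029 leaving out 1 library, against 628. In Ha vs La 507 were called with limma on log2(FPKM + 1) and 831 to 1466 leaving out 1 library, against 1192. The cause of these shifts was not tested, beyond the fewer or more libraries in a fit. The log2 fold change of IFI6 in Ha vs Hb changed sign with library totals (−0.11), upper-quartile factors (−0.11), limma on FPKM with 1 added (−0.29) or 0.1 added (−0.29), and was −0.028 to 0.53 leaving out 1 library. That of MX2 in Hb vs Lb was −0.016 in the fit of all 12 libraries and −0.30 to 0.60 leaving out 1 library. Scaling moved the median of all genes in Ha vs Hb from −0.02 to −0.33 with library totals and −0.34 with upper-quartile factors (La vs Lb from 0.01 to −0.16 and −0.25), and genes called lower in Ha vs Hb from 3844 to 5039 and 5101 beside 3978 and 3967 higher, against 4666. Relative to these medians the fall of the 10 genes in Ha vs Hb moved little: their own medians were −1.83 and −1.82. IFI6 there lay 0.24 above the median of all genes, 0.21 with library totals, 0.23 with upper-quartile factors, and −0.034 and 0.15 with limma on FPKM. Over all 17332 genes the deviations of libraries of the same replicate number had an r of −0.02 to 0.05, while the 10 genes had mean deviations of −0.75, −0.49, −0.37 and −0.56 in the replicates 2 and 0.77, 0.75, 0.41 and 0.00 in the replicates 1 of Ha, Hb, La and Lb. With a replicate block 8 of the 10 genes were called in Ha vs Hb, 6 in Ha vs La, and 0 other pathway genes in Hb vs Lb. All genes called with it in Hb vs Lb were 154, against 628. The labels link no boars across groups, so this block does not follow from the design.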

Other observations

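PYGM, the muscle form of glycogen phosphorylase, followed the 10 genes most closely within groups, and between groups in some comparisons only. It was at 54.1, 33.3 and 38.5 CPM in Ha, 17.5, 11.3 and 11.9 in Hb, 12.2, 8.89 and 9.97 in La and 25.0, 21.1 and 27.4 in Lb. The order of the boars matched that of MX1 in each group except that the lower pair of Hb was exchanged. Between groups PYGM fell with age in HZ boars (−1.63 ± 0.260, adjusted p = 0.00107), rose in LC boars (1.26 ± 0.187, adjusted p = 0.000399) and was lower in LC boars at 30 days (−2.02 ± 0.207, adjusted p = 0.00135). At 120 days its log2 fold change between the breeds was 0.90 ± 0.223 (adjusted p = 0.0577), beside a median of 0.79 for the 10 genes, and its interaction of breed and age was 2.87 ± 0.323 (adjusted p = 0.00159). The signs for PYGM and the 10 genes were opposite in La vs Lb and in Ha vs La.

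Neighbours of the 10 genes on the chromosome are given by their values, and no test of a neighbour against its gene was run. LOC110261384, which overlaps ISG15, had log2 fold changes with age of −1.28 ± 0.480 (adjusted p = 0.0459) in HZ and −1.83 ± 0.538 (adjusted p = 0.0146) in LC boars, of the same sign as ISG15. RPH3A, which overlaps OAS1, had the opposite sign to OAS1, with 1.60 ± 0.218 (adjusted p = 0.000504) and 0.929 ± 0.207 (adjusted p = 0.00376). In Hb vs Lb RPH3A was at −0.951 ± 0.193 (adjusted p = 0.0346). FAM3B, 1841 bases from MX2, had its highest group mean in Ha (0.741 CPM), and HES4, 6511 bases from ISG15, in Lb (1.39 CPM). Neither had an adjusted p below 0.05 in any comparison tested. CMPK2, an interferon-stimulated gene 5586 bases from RSAD2, was at 12.0 ± 3.26 CPM in Ha, 18.6 ± 4.94 in Hb, 22.8 ± 6.73 in La and 37.9 ± 9.99 in Lb (mean ± SD, n = 3). Its log2 fold changes with age were 0.63 ± 0.283 (adjusted p = 0.0825) in HZ and 0.74 ± 0.251 (adjusted p = 0.0265) in LC boars, above 0 where those of RSAD2 were below, and neither was called. Between the breeds CMPK2 had the same sign as RSAD2, also without a call. The values were 0.925 ± 0.263 (adjusted p = 0.0414) in Ha vs La and 1.06 ± 0.275 (adjusted p = 0.0645) in Hb vs Lb. LOC100151816, for which RefSeq gives the synonym IFIT5, lies next to IFIT1 and had log2 fold changes of 0.93 ± 0.220 (adjusted p = 0.00702) and 0.10 ± 0.165 (adjusted p = 0.601). TMPRSS2, 5832 bases from MX1, was upregulated with age (6.15 ± 0.567, adjusted p = 7.83e-05, and 4.85 ± 0.436, adjusted p = 2.1e-05). AGRN, 1806 bases from ISG15, fell with age in HZ boars (−3.04 ± 0.308, adjusted p = 0.000122), and its log2 fold change in LC boars was 0.48 ± 0.812 (adjusted p = 0.614). It differed between the breeds at 30 days (−5.19 ± 0.218, adjusted p = 3.73e-05), at 408 ± 76.7 CPM in Ha and 11.2 ± 2.49 in La, in the direction opposite to ISG15.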
